A study of Mus musculus with 9 samples.

Results

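NRF2, the transcription factor encoded by Nfe2l2, and the genes of antioxidant defence that it drives were followed in mouse embryonic stem cells given a nitric oxide donor. The set consists of 10 genes: Nfe2l2, Keap1, Nqo1, Hmox1, Gclm, Gclc, Txnrd1, Srxn1, Prdx1 and Gpx4. Its features are all probe sets whose single platform symbol is 1 of these genes, which gave 19 of the 45101 probe sets on the array and covered 9 genes. Prdx1 is listed on 5 probe sets that it shares with other symbols and on 0 of its own, so its expression is not analysed here. All 19 probe sets passed the filter on low signal. Nfe2l2, Keap1, Gclm, Gclc and Gpx4 had 2 probe sets each, Txnrd1 had 3, Srxn1 had 4, and Nqo1 and Hmox1 had 1. The tested probe set of highest mean signal stands for its gene below.

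The cells were of D3-pOct4, a line derived from D3 mouse embryonic stem cells, grown in serum for 7 days in 3 conditions. Cultures with the donor had no leukemia inhibitory factor (LIF) and received 2 µM DETA/NO, which releases nitric oxide slowly. Cultures without LIF had neither agent, and cultures with LIF had 1000 U/ml of this cytokine, which holds the cells undifferentiated. Each group has 3 Affymetrix mouse genome arrays, replicates 1, 2 and 3, from passages 31, 33 and 34 of the 1 line. Beyond the passage the labels do not tell the cultures apart, and the p-values therefore reflect only array-to-array spread, which may be technical.

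In resting cells KEAP1, a cysteine-rich adaptor of a CUL3 ubiquitin ligase, holds NRF2 and directs it to the proteasome. Oxidants, electrophiles and nitric oxide modify KEAP1 cysteines, and NRF2 then accumulates and binds antioxidant response elements together with small MAF proteins. Its targets make glutathione, reduce thioredoxin and quinones, and break down heme; much of this control acts on NRF2 protein and need not appear in Nfe2l2 mRNA.

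The core of the antioxidant response element, TGACNNNGC, was searched on both strands of RefSeq promoter windows of GRCm38.p6, which run from 250 bases before a gene's start to 50 after it. Windows were held for 8 of the 10 genes, not for Hmox1 or Gclc. The core lay in a window of 5 of these 8, namely Nfe2l2, Gclm, Txnrd1, Srxn1 and Prdx1, while 14% of 27025 genes held one (12.4% of 32851 windows). No match lay in the windows of Keap1, Nqo1 or Gpx4, which says only that these letters are not in them. The 4 stretches below are the matches that lie before the start of their gene, and binding of NRF2 to them was not tested. Each reads 5′ to 3′ on the strand of its gene, with the 9 matching bases in capitals. For Nfe2l2, on the minus strand at chr2:75704874-75704913, the core reads TGACTCCGC and begins 240 bases before the start. The others lie at chr3:122245402-122245452 for Gclm, chr10:82859093-82859143 for Txnrd1 (1 of its 3 windows) and chr4:116685445-116685495 for Prdx1, all on the plus strand and with the core on the opposite strand. There it reads TGACGGTGC for Gclm, TGACAAAGC for Txnrd1 and TGACTCAGC for Prdx1. The last of these overlaps TGACTCA, the letters bound by AP-1 factors. In Srxn1 the core TGACCTAGC lay after the start.
Nfe2l2: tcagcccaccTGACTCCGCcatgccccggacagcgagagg
Gclm: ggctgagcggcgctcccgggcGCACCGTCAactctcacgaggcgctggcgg
Txnrd1: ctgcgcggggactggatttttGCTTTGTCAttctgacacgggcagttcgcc
Prdx1: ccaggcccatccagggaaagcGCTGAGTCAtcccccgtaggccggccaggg

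Signals are the deposited intensities, scaled so that the trimmed mean is 100 on every array. Array medians still differed: 20.8 to 23.3 on donor replicates 1 and 2 and LIF replicate 1, called the brighter arrays here, and 13.9 to 17.8 on the other 6. Donor replicate 3 is thus the only donor array among the other 6, and no array without LIF is among the brighter ones. Socs3, a STAT3 target induced by LIF, went against the labels of a pair of arrays, with 3054 on the array labelled no LIF replicate 2 and 282 on that labelled LIF replicate 2. Donor replicate 3 and no LIF replicate 1 were the most alike of the 36 pairs of arrays, at r = 0.977 over tested probe sets, although they differ in group and passage. Markers of the labelled cell type were present throughout, the summed signal of 8 pluripotency genes being 12002 to 16455 with the donor, 17398 to 28697 without LIF and 15665 to 23632 with LIF. Pou5f1, which encodes the pluripotency factor OCT4, read 958, 1096 and 3044 with the donor, 3211, 2562 and 2491 without LIF, and 1711, 1401 and 1874 with LIF. Every array without LIF thus lay above every array with LIF, although LIF holds the cells undifferentiated. The same held for 2.88% of all tested probe sets, and the cause was not tested. The 9 fibroblast and mesenchyme markers on the array summed to 167 to 617 with the donor, 167 to 496 without LIF and 450 to 981 with LIF; Col1a1 was dim, at 2.73 to 25.5, while Pdgfra reached 509 and Acta2 302. The 10 endoderm markers summed to 2392 to 5265 with the donor, 2441 to 7354 without LIF and 5205 to 16717 with LIF. No marker was at 0, but the lowest of all signals was 0.0144, so this does not show that each marker was expressed. In such bulk samples fewer cells of a type and less RNA per cell cannot be told apart.

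**Figure D1:**
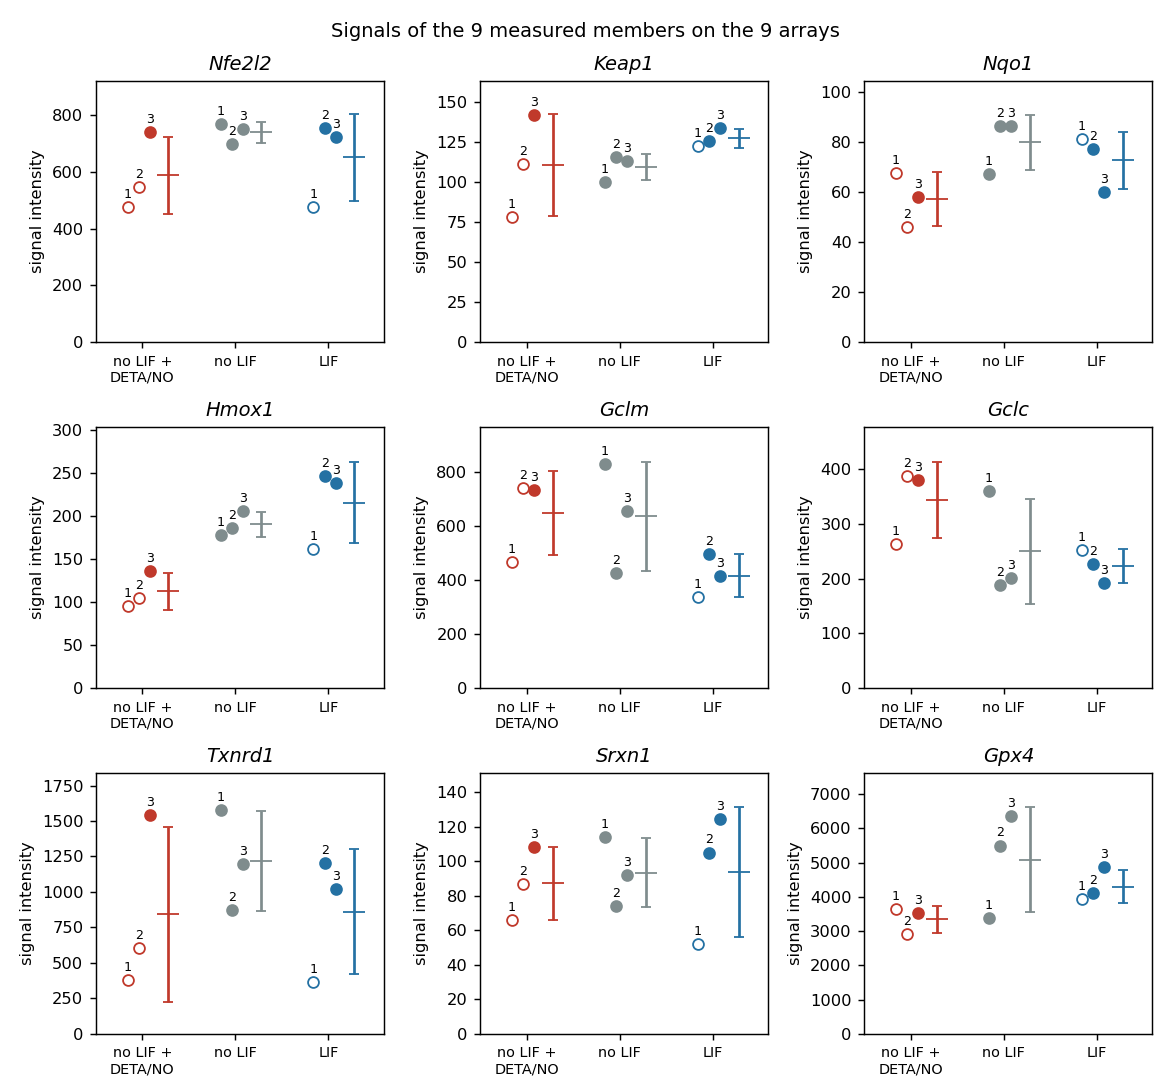
Signal intensity (linear, from 0) of the 9 measured genes on each array, by group; numbers are replicates, open circles are the 3 brighter arrays, and the dash with bars is the mean ± SD of 3 arrays. Hmox1 lies at 95.5 to 137 on the donor arrays, below every other array, and Txnrd1 and Nfe2l2 are lowest on the open circles.

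Adding the donor to cells without LIF asks what low nitric oxide does in the absence of the cytokine. No gene of the set passed the test. Hmox1 was lower on all 3 donor arrays than on any array without LIF, Gpx4 and Nqo1 had lower means, and Gclc had a higher one. The log2 differences of the 9 genes ran from -0.76 to 0.50 on the log2(signal + 3) scale, with 7 lower and 2 higher and a median of -0.35, against a median of 0.08 over all tested probe sets. The smallest adjusted p among the 9 was 0.929 in limma. All 8 pluripotency genes also had negative differences, with a median of -0.41, and their part in these values was not tested. Leaving out donor replicate 1 gave the set a median of -0.22.

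The regulators come first. Nfe2l2 read 477, 545 and 739 with the donor, against 770, 698 and 752 without LIF and 475, 754 and 724 with LIF. Its lowest signals, 475 to 545, were those of the 3 brighter arrays, and all other arrays gave 698 to 770. The mean was 587 ± 136 with the donor and 740 ± 37.1 without LIF (SD, n = 3 each), a log2 difference of -0.35 (SE 0.32). On the 6 other arrays alone, where donor replicate 3 at 739 is the only donor array, it was 4e-04. The second Nfe2l2 probe set was dim, at 3.48 to 19.0.

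Keap1, which encodes the NRF2 sensor, read 78.4, 111 and 142 with the donor, against 99.8, 115 and 113 without LIF and 122, 126 and 134 with LIF. The donor arrays spanned the range of both other groups. Their mean of 111 ± 31.8 stood against 109 ± 8.41 without LIF (SD, n = 3 each), at -0.02 on the log2 scale (SE 0.35). Its other probe set, at 13.3 to 39.1, had a log2 difference of 0.40, the opposite sign.

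Hmox1 encodes heme oxygenase 1, which opens the heme ring and yields iron, biliverdin and carbon monoxide; it is repressed by BACH1 and induced by heme, oxidants and nitric oxide in many cells. Its signal was 95.5, 105 and 137 with the donor, against 179, 187 and 206 without LIF. With LIF it was 162, 247 and 239. All 3 donor arrays thus lay below all 6 arrays of the other groups. Means were 112 ± 21.6 with the donor and 190 ± 14.1 without LIF (SD, n = 3 each). The log2 difference was -0.76 with an SE of 0.34 and a limma adjusted p of 0.929. In the 3 passages it was -0.88, -0.81 and -0.58, and this shared sign follows from the lack of overlap. The unadjusted p was 0.0477, and 0.061 with the passage as a replicate block. Of the 9 genes it alone was without overlap in this direction, which held for 2.52% of the 29811 tested probe sets; 6.4% were higher without overlap and 0 of the 9 genes were.

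The Hmox1 values moved with array brightness, the brighter arrays reading 95.5 to 162 where the others read 137 to 247. Within the 6 others, donor replicate 3 differed from the arrays without LIF by -0.47, and with brightness as a block the log2 difference was -0.42. Divided by its array's median, Hmox1 stood at 4.26, 5.07 and 9.1 with the donor and at 12.9, 11.8 and 13.2 without LIF, without overlap. Array medians were 22.4 and 20.8 on donor replicates 1 and 2 and 13.9 to 15.9 without LIF. The division thus lowers those donor arrays relative to the arrays without LIF, for every gene.

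Nqo1, a quinone reductase that uses NADPH or NADH and is the usual reporter of NRF2 activity, read 67.7, 46.1 and 58.2 with the donor, against 67.3, 86.5 and 86.5 without LIF. Donor replicate 1 and no LIF replicate 1 were level, so the groups overlapped. Means were 57.4 ± 10.8 and 80.1 ± 11.0 (SD, n = 3 each), at -0.47 on the log2 scale (SE 0.35). Over the array median its signal was 3.02, 2.22 and 3.87 with the donor, against 4.86, 5.45 and 5.56 without LIF. On that scale, which lowers donor replicates 1 and 2 against the arrays without LIF for every gene, the groups did not overlap. Hmox1, Nqo1 and Gpx4 were then the 3 of the 9 genes lower without overlap, as were 7.56% of all tested probe sets, while 3.91% were higher and 0 of the 9 were.

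Gclc and Gclm encode the catalytic and the modifier subunit of glutamate-cysteine ligase, the rate-limiting enzyme of glutathione synthesis. Gclc read 264, 389 and 380 with the donor, against 361, 189 and 201 without LIF. The array without LIF that reached the donor level was replicate 1, the one most alike to donor replicate 3. The mean was 344 ± 69.5 with the donor and 250 ± 96.0 without LIF (SD, n = 3 each), a log2 difference of 0.50 (SE 0.37); without these alike arrays it was 0.71. The second Gclc probe set gave -0.02.

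Gclm read 467, 738 and 731 with the donor, against 828, 426 and 653 without LIF. Values of the groups interleaved, the highest and the lowest of the 6 both coming from cells without LIF. Means were 646 ± 155 and 636 ± 201 (SD, n = 3 each), at 0.04 on the log2 scale (SE 0.36). Its second probe set stood at 0.35.

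Gpx4, the selenoprotein that reduces lipid hydroperoxides in membranes and guards against ferroptosis, read 3633, 2902 and 3516 with the donor, against 3378, 5501 and 6376 without LIF. Again no LIF replicate 1 lay among the donor arrays and the other arrays without LIF lay above them. Means were 3350 ± 393 and 5085 ± 1542 (SD, n = 3 each), or -0.56 on the log2 scale with an SE of 0.28 and a limma adjusted p of 0.929, and the second probe set of Gpx4 gave -0.65. Without the alike arrays the first was -0.87, and after quantile normalization -0.26.

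Txnrd1 encodes the cytosolic selenoprotein that reduces thioredoxin with NADPH. It read 379, 607 and 1542 with the donor, against 1576, 874 and 1198 without LIF and 362, 1203 and 1017 with LIF. The 3 brighter arrays gave 362 to 607 and the 6 others 874 to 1576, while the groups overlapped. Donor replicates 1 and 2 are among the brighter arrays and no array without LIF is, and the part of brightness was not tested. The means were 843 ± 616 with the donor and 1216 ± 351 without LIF (SD, n = 3 each), at -0.74 on the log2 scale (SE 0.57). It was -0.29 without donor replicate 1 and -1.30 without donor replicate 3. With brightness as a block the difference was 0.36, of opposite sign. The other Txnrd1 probe sets were dimmer and gave -0.67 and -0.51.

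Srxn1, sulfiredoxin, restores over-oxidised peroxiredoxins such as the product of Prdx1. It read 65.9, 87.0 and 109 with the donor, against 114, 74.3 and 92.1 without LIF and 52.0, 105 and 124 with LIF. All 3 groups overlapped. Means were 87.2 ± 21.3 with the donor and 93.4 ± 19.9 without LIF (SD, n = 3 each), at -0.10 on the log2 scale (SE 0.42). Of its 3 other probe sets, 2 were higher with the donor, at 0.26 and 0.71, and 1 stood at -0.28.

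Limma called none (0%) of the 29811 tested features in this comparison, and 1498 (5.02%) had an unadjusted p below 0.05; among the 9 genes the numbers were 0 and 1, the 1 being Hmox1; with the replicate block it was 0. The 1498 became 486, 683 or 4290 without donor replicate 1, 2 or 3, and 797 or 959 without no LIF replicate 2 or 3. Of the 9 genes, 5 were lower without donor replicate 1, and 3 with brightness as a block, when Hmox1, Nqo1 and Gpx4 kept negative differences of -0.42, -0.53 and -0.46.

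**Figure D2:**
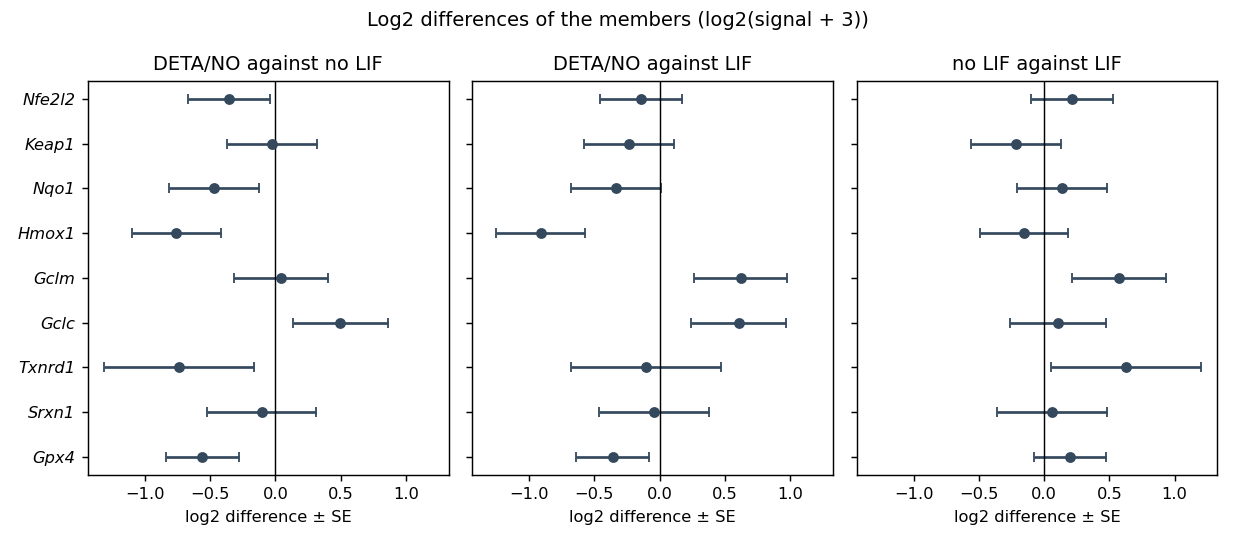
Log2 differences, on the log2(signal + 3) scale, of the 9 genes in the 3 comparisons, with bars of ± 1 SE from limma (3 arrays in each group). Hmox1 is lowest in both comparisons of the donor, at -0.76 and -0.91, while Gclc and Gclm lie right of 0 in the comparison with LIF.

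Setting donor cultures against LIF cultures uses the same donor arrays, so its values are not independent of those above. Hmox1 was again lower, and both glutamate-cysteine ligase subunits were higher, in 3 of 3 passages each. For Hmox1 and Gclc, whose groups did not overlap, the same sign in each passage follows from the lack of overlap. None of these genes passed the test. All 8 pluripotency genes and all 10 endoderm markers also had negative differences here, with medians of -0.42 and -0.99, and their part was not tested. The summed endoderm signal was 7281, 5205 and 16717 on LIF replicates 1 to 3, against 2392 to 5265 with the donor. Hmox1 averaged 112 ± 21.6 with the donor and 216 ± 47.1 with LIF (SD, n = 3 each), a ratio of 0.521, or -0.91 on the log2 scale with an SE of 0.34 and a limma adjusted p of 1. It was the same sign among the brighter arrays, at -0.67 (2 donor arrays and 1 with LIF). Among the others it was -0.82, with donor replicate 3 the only donor array. Over the array median, however, donor replicate 3 at 9.1 exceeded LIF replicate 1 at 6.93, so that the groups overlapped on that scale.

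Gclc read 252, 227 and 191 with LIF, all below the 264 to 389 of the donor arrays. Its log2 difference was 0.60 (SE 0.37), and 0.34 among the brighter and 0.86 among the other arrays. The second Gclc probe set was higher too, by 0.46. The gap between the groups was small, with donor replicate 1 at 264 and LIF replicate 1 at 252, and over the array median they overlapped.

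Gclm read 338, 496 and 412 with LIF, against the 467, 738 and 731 of the donor arrays. One array with LIF, replicate 2, exceeded the lowest donor array. Its log2 difference was 0.62 (SE 0.36), 0.79 among the brighter and 0.69 among the other arrays. The second probe set was at 0.17.

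Gpx4 read 3929, 4114 and 4863 with LIF, each above all 3 donor arrays. The log2 difference was -0.36 (SE 0.28), and the lower value in 3 of 3 passages follows from the lack of overlap. The second probe set overlapped between the groups and gave -0.16, and over the array median the first one overlapped as well.

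The other 5 genes overlapped between donor and LIF. Nqo1, at 81.3, 77.2 and 60.0 with LIF, had a log2 difference of -0.33 (SE 0.35) and was lower with the donor in 3 of 3 passages. Keap1 stood at -0.24, Nfe2l2 at -0.14, Txnrd1 at -0.11 and Srxn1 at -0.04.

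Between donor and LIF, 2 of the 9 genes were lower without overlap and 1 was higher, where 3.19% and 2.79% of all tested probe sets were. On signals divided by the array median the 3 became 0, where 4.56% of all tested probe sets were lower and 1.88% higher without overlap. Limma called none (0%) of the 29811 tested features and 578 (1.94%) had an unadjusted p below 0.05, and of the 9 genes 0 and 1. The 578 became 1026 without donor replicate 3, 1117 without LIF replicate 2 and 258 without LIF replicate 3. The median of the 9 genes was -0.14, and it ran from -0.35 without LIF replicate 1 or donor replicate 3 to -0.0059 without donor replicate 1. Of the 9 genes 7 had a negative difference, and 5 without donor replicate 1, LIF replicate 2 or LIF replicate 3.

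Withdrawal of LIF alone moved no gene of the set past the threshold. Of the 9 genes 7 were higher and 2 lower without LIF, from -0.22 for Keap1 to 0.63 for Txnrd1, with a median of 0.13 against -0.10 over all tested probe sets. The median was 0.29 without LIF replicate 3, 0.21 without no LIF replicate 2 and 0.077 without no LIF replicate 3. All 10 endoderm markers had negative differences in this comparison, with a median of -0.98, and their part was not tested. Their summed signal was 7281, 5205 and 16717 on LIF replicates 1 to 3, against 2441 to 7354 without LIF. Only LIF replicate 3 lay above the arrays without LIF. Keap1 was without overlap, its 99.8 to 115 without LIF lying below the 122 to 134 with LIF, at -0.22 on the log2 scale (SE 0.35; limma adjusted p = 0.973). Means were 109 ± 8.41 without LIF and 127 ± 5.84 with LIF (SD, n = 3 each). The second Keap1 probe set overlapped, and so did the first over the array median, where 0 of the 9 genes were without overlap and 2.57% of all tested probe sets were lower and 5.6% higher.

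Gclm stood at 0.58 (SE 0.36) without LIF against LIF, and at 1.29, -0.22 and 0.66 in passages 31, 33 and 34. Passage 33 holds the pair of arrays whose Socs3 goes against their labels, and without that pair Gclm was at 0.97. Txnrd1 gave 2.11, -0.46 and 0.24 in the same passages, the first of them set against the brighter LIF array. Within the 6 other arrays its difference was 0.1. For Hmox1 the difference was -0.16 (SE 0.34), for Gclc 0.1, for Gpx4 0.2, for Nfe2l2 0.21, for Nqo1 0.13 and for Srxn1 0.06.

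No probe set was called here (0% of 29811), 459 (1.54%) had an unadjusted p below 0.05, and 0 of the 9 genes were. The 459 became 765 without donor replicate 3 and 283, 1753 and 255 without LIF replicate 1, 2 and 3. Of all tested probe sets 4.72% were lower without overlap, as 1 of the 9 genes was, and 2.88% were higher, as 0 of the 9 were. The number of genes with a positive difference was 7, and 5 without no LIF replicate 1.

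The mean level of the genes was lowest on the brighter arrays, though most of the genes overlapped between brighter and other arrays. Averaged over the 9 genes, each relative to its own mean, the log2 level was -0.41, -0.17 and 0.21 on donor replicates 1 to 3, against 0.24, 0 and 0.21 without LIF and -0.33, 0.16 and 0.09 with LIF. Of the 9 genes, Gclc alone had a higher log2 mean on the brighter arrays, by 0.26. Txnrd1 and Nfe2l2 were lower on each brighter array than on all 6 others, as were 7.27% of all tested probe sets, while 14.6% lay above and 0 of the 9 genes did. Centring each array on its median lowers every gene most on the brighter arrays, which were chosen by their high medians. The levels became -0.69, -0.32 and -0.6 on the brighter arrays against 0.05 to 0.49 elsewhere, a widening that follows from the centring. Then 6 of the 9 genes lay below on the brighter arrays without overlap, as 14.3% of all tested probe sets did. The 90th percentile of signal differed less between arrays, the brighter ones giving 329 to 337 where the others gave 334 to 343, and the part of brightness in these values was not tested.

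**Figure D3:**
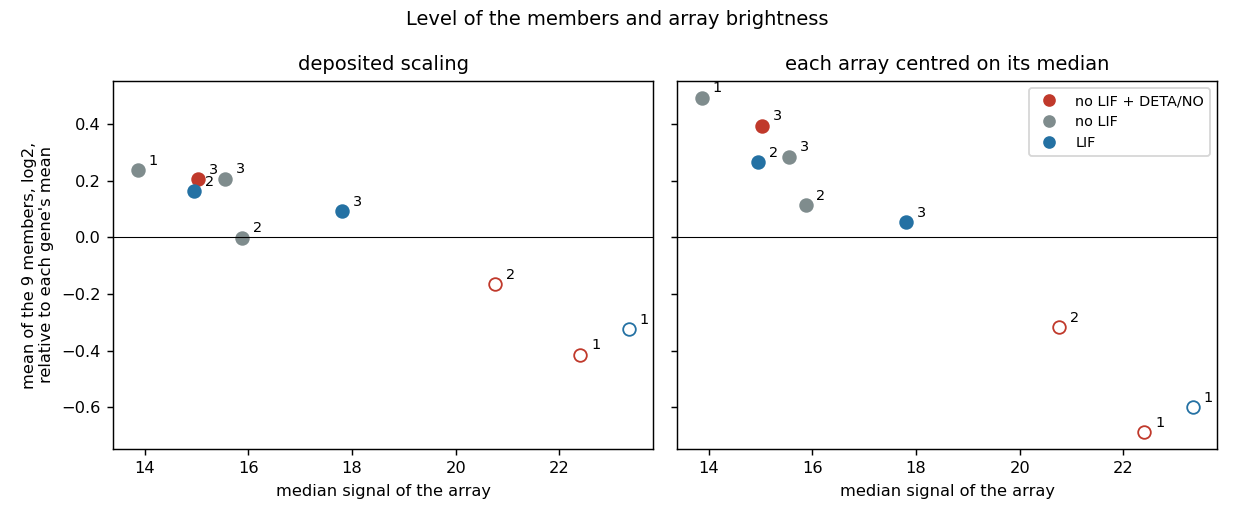
Mean log2 level of the 9 genes on each array, relative to each gene's own mean, against the median signal of the array; left with the deposited scaling, right with each array centred on its median. Points are arrays, numbered by replicate, and the open circles at medians of 20.8 to 23.3 lie at the bottom of both panels.

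The genes did not all run alike. Of the 36 pairs of genes, 24 had a positive Pearson correlation over the 9 arrays, which share scaling and cultures, with a median of 0.29. Nfe2l2 and Txnrd1 were closest, at 0.97, and Srxn1 followed Txnrd1 at 0.86 and Nfe2l2 at 0.83. The core lay in a window of Nfe2l2, Txnrd1, Srxn1 and Gclm, and Gclm correlated with Nfe2l2 at 0.43. Hmox1, for which no window was held, correlated with Nfe2l2 at 0.70. Any part of the element in these correlations was not tested. Gclc and Gpx4 ran opposite, at -0.88, and Gclc and Hmox1 at -0.63. After median centring, which shifts all genes of an array alike and can raise correlations, 33 of the 36 pairs were positive. Among 13265 genes outside the lists, those closest to the mean pattern of the 9 were Selenoh, Yeats4 and Sec61b, at r = 0.99, 0.98 and 0.98 over 9 arrays. Selenoh read 366, 756 and 1859 with the donor, 1837, 1200 and 1636 without LIF, and 402, 1530 and 1107 with LIF, low on the same 3 brighter arrays.

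Related genes of the pathway were read as 6 lists, of which no member was called in any comparison. With the donor against no LIF, 19 of 24 tested genes of glutathione synthesis and use were lower, at a median of -0.34, as were 11 of 14 of the thioredoxin and peroxiredoxin system (median -0.36). All 4 tested genes that clear superoxide and peroxide were lower (median -0.58), as were 5 of 7 that supply NADPH (-0.55) and 10 of 12 other NRF2 targets (-0.55). NRF2 partners and regulators were split, with 8 of 16 lower and a median of 0.02. Donor replicates 1 and 2 are among the brighter arrays and no array without LIF is. The part of brightness in the lists was not tested. Over all tested probe sets 56% were higher, 44% were lower and the median was 0.08; the share higher was 44.7% with quantile normalization and 40.1% after median centring.

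The 2 brightest genes of each list need not stand for it. Sod1, the cytosolic superoxide dismutase, averaged 1935 ± 179 with the donor and 2904 ± 889 without LIF (SD, n = 3 each), at -0.54, and mitochondrial Sod2 was also at -0.54. Gsta4, a glutathione transferase for lipid aldehydes, stood at -0.96, with 1295 ± 365 and 2571 ± 890 (SD, n = 3 each), and was lower without overlap. Slc3a2, the heavy chain of the cystine importer, was at 0.43 (SE 0.60), with 2.13, 0.06 and -0.90 in passages 31, 33 and 34. Fth1, the ferritin heavy chain, was at -0.55 and lower without overlap. Of all tested probe sets 2.52% were lower without overlap in this comparison and 6.4% were higher. The other genes named in this paragraph overlapped between the groups. Abcc4, an efflux pump, was at 0.51 (SE 0.55), with 2.10, 0.85 and -1.42 in passages 31, 33 and 34. Thioredoxin itself, Txn1, was at -0.79 (SE 0.73), with -2.86, -0.11 and 0.60 in passages 31, 33 and 34. Its inhibitor Txnip was at -0.59 (SE 0.55), with 1.14, -1.23 and -1.67 in the same passages. Of NADPH suppliers, Tkt and Pgd stood at 0.07 and 0.02, the 2 positive differences among the 7. Among partners, Park7 was at -0.23 and Sqstm1, a KEAP1-binding autophagy receptor, at -0.57.

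The other comparisons had other medians. With the donor against LIF the medians of the 6 ran from -0.31 for NADPH supply to 0.15 for partners and regulators. Without LIF against LIF all 6 were positive, from 0.1 for partners and regulators to 0.36 for glutathione genes, of which 18 of 24 were higher. Over all tested probe sets the share higher was 42.7% in that comparison, 53.8% with quantile normalization and 58.6% after median centring.

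**Figure D4:**
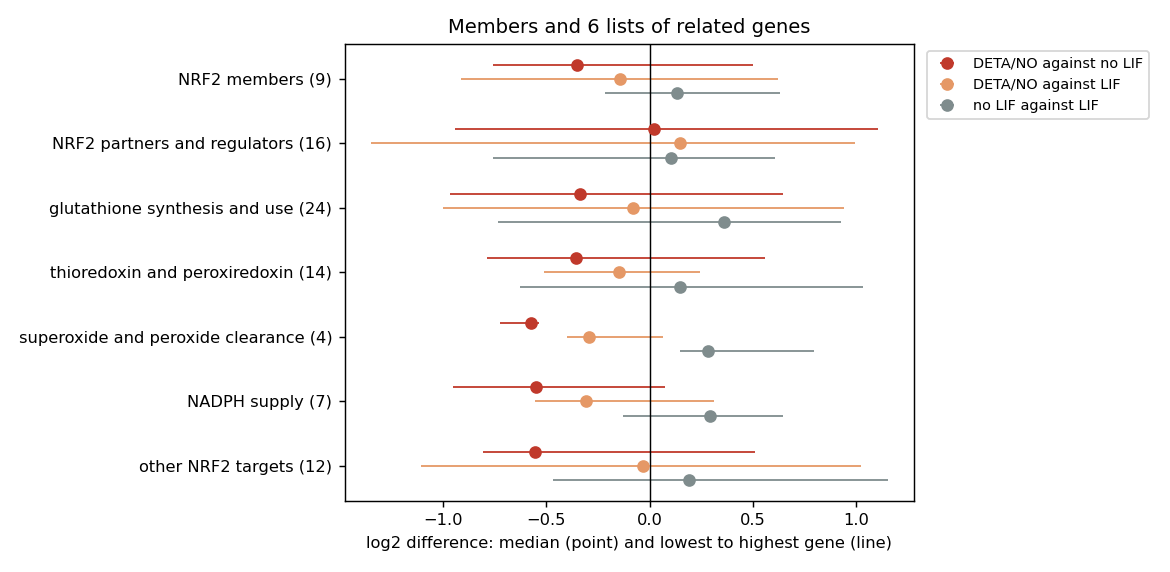
Log2 differences, on the log2(signal + 3) scale, of the 9 genes and of 6 lists of related genes in the 3 comparisons; the point is the median over the tested genes (their number in parentheses) and the line runs from the lowest to the highest gene. The medians with the donor against no LIF lie at or left of -0.34 for all rows but the partners and regulators.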

How the data were processed

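Gene expression was measured on 9 Affymetrix arrays, 3 in each group. The authors deposited linear signal intensity values, made per the series' design text with GeneChip Operating System 1.4.0.036 and global scaling; the submitters' processing notes name MAS5. Detection calls were not used here.

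Values were taken as log2(signal + 3), a pseudocount set at the rounded 20th percentile of all values. A fold change on this scale understates the change of dim genes. Of 45101 probe sets, 64 controls were left out, and 29811 at or above the 40th percentile of their array on at least 3 arrays were tested. Of the probe sets other than controls, 34945 carry 1 symbol in the platform annotation, 932 several and 9160 none. All 9 arrays entered 1 fit by group in limma 3.58.1 (R 4.3.3; lmFit, eBayes with trend), two-sided, with Benjamini-Hochberg adjustment over all tested probe sets and a threshold of 0.05. Log2 differences had a median SE of 0.50 over tested probe sets, and the number of arrays limits the precision. The fit was also run on simulated data, with noise drawn independently for each probe set and array. Such data lack the differences in brightness that the genes of an array share. They therefore cannot show how the fit handles those differences.

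The genes and lists were chosen with earlier results of these data known. Named are the members, by their brightest tested probe set, the 2 brightest genes of each list without calls, Socs3 and Pou5f1 as checks, and the 3 genes of most similar pattern. Col1a1, Pdgfra and Acta2 were named after their values were seen. The titles tie each replicate number to a passage, so the passage served as a block in an alternative fit. Deviations of same-numbered arrays correlated over 0.1 in 3 of 9 pairs (r from -0.6 to 0.65). Those of arrays with different numbers did so in 8 of 18 pairs (r from -0.64 to 0.64). Arrays of the same passage were thus no more alike by this measure. Alternatives covered pseudocount, filter, scaling, trend, blocks and arrays left out.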

Additional observations from a re-analysis of the deposited data

How the results depend on the processing

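Over the 9 genes, 3 comparisons and 22 alternatives each, 545 of 594 values kept their sign and 49 did not. No alternative, the replicate block included, called a probe set. That block, the filter, the trend and the arrays of the third group cannot change a difference, so signs kept there were fixed. With the block Hmox1, donor against no LIF, thus stayed at -0.76 (unadjusted limma p 0.061). With brightness as a block the median of the set, donor against no LIF, was 0.202, and on the 6 other arrays alone, an alternative chosen after seeing the data, 0.23; the cause was not tested. Genes lower on the brighter arrays without overlap numbered 6 after median centring, which lowers those arrays most, against 14.3% of all tested probe sets. With the mean of all probe sets the number was 1, against 6.75%.

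Signs turned as follows. With brightness as a block, donor against no LIF gave 0.034 for Nfe2l2, 0.202 for Keap1, 0.36 for Txnrd1 and 0.43 for Srxn1; donor against LIF gave 0.052 for Nfe2l2, 0.44 for Txnrd1 and 0.22 for Srxn1; no LIF against LIF gave -0.21 for Srxn1. On the 6 other arrays, donor against no LIF gave 4e-04 for Nfe2l2, 0.37 for Keap1, 0.38 for Txnrd1 and 0.23 for Srxn1, donor against LIF 0.0013 for Nfe2l2, 0.13 for Keap1 and 0.48 for Txnrd1, and no LIF against LIF -0.304 for Srxn1. Quantile normalization gave -0.075 for Gpx4 and median centring 0.0041 for Keap1 and 0.064 for Hmox1 (no LIF against LIF), and median centring -0.18 for Gclm (donor against no LIF). Median centring moved the median of all tested probe sets from -0.1 to 0.12 for no LIF against LIF and from 0.083 to -0.15 for donor against no LIF, and the share higher from 42.7% to 58.6% and from 56% to 40.1%; with quantile normalization it was 53.8% and 44.7%. Without the alike arrays, no LIF against LIF gave -0.19 for Gclc and -0.088 for Srxn1. Without the pair of doubted replicate 2 arrays, donor against no LIF gave 0.018 for Keap1 and -0.22 for Gclm, and donor against LIF 0.22 for Txnrd1 and 0.081 for Srxn1. With the mean of all probe sets, values were -0.15 for Nfe2l2 (no LIF against LIF), 0.19 for Keap1 and 0.15 for Srxn1 (donor against no LIF) and 0.22 for Srxn1 (donor against LIF).

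Leaving out 1 array at a time, values that turned ranged from -0.19 to 0.27 for Gclc and -0.304 to 0.302 for Srxn1 (no LIF against LIF), -0.22 to 0.198 for Keap1, -0.22 to 0.26 for Gclm and -0.27 to 0.076 for Srxn1 (donor against no LIF), and -0.67 to 0.34 for Txnrd1 and -0.41 to 0.1985 for Srxn1 (donor against LIF). The median of the 9 genes ranged from -0.49 to -0.22 (donor against no LIF), -0.35 to -0.0059 (donor against LIF) and 0.077 to 0.29 (no LIF against LIF), and Txnrd1 from -1.30 to -0.29 and from 0.095 to 0.96 (donor against no LIF and no LIF against LIF). Hmox1 ranged from -0.9 to -0.65 and from -1.11 to -0.81 in the comparisons of the donor. Probe sets at an unadjusted p under 0.05, which numbered 459 for no LIF against LIF, 1498 for donor against no LIF and 578 for donor against LIF, became 1135, 2353 and 1319 without the filter, 294, 676 and 1653 with the brightness block, and 788, 3564 and 1185 without the alike arrays. Without the doubted arrays they were 2444 and 1377 in the comparisons with LIF, and on the 6 other arrays 320 for donor against no LIF. Of the 9 genes, 0 to 2 had an unadjusted p under 0.05 in any of these. Genes whose groups do not overlap numbered 0, 3 and 0 over the array median and 0, 2 and 3 with quantile normalization, both chosen after seeing the data, against 1, 1 and 3; over all tested probe sets the shares were 8.17%, 11.5% and 6.44%, then 7%, 8.89% and 6.29%, against 7.6%, 8.92% and 5.98%. The spread between arrays limits all differences of this size, and dim probe sets such as the second of Nfe2l2 carry little signal over background.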
